A study of Mus musculus with 6 samples.

Results

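The transcripts described here are 10 genes of the circadian clock, chosen by name: Arntl, Clock, Npas2, Per1, Per2, Per3, Cry1, Nr1d1, Nr1d2 and Dbp. Each gene was read from a probe set that the array's annotation pairs with that gene alone, and where several existed the one with the highest mean over the 6 arrays was taken. Of the 10 genes, 8 had such a probe set, out of 18820 genes that had one on the array. Clock, Per1, Per2, Per3 and Nr1d2 reached a signal of 100 (6.64 on the log2 scale) in at least 1 array and were tested among 10633 probe sets of 35556. Arntl, Npas2 and Cry1 stayed below 100 in all 6 arrays, so their levels are described and they were not among the probe sets tested. Nr1d1 and Dbp lie only on probe sets shared with a neighbouring gene (Thra and Sphk2), so neither could be measured alone.

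The livers came from 3 LERKO females, with floxed ERα alleles (ERα fl/fl) and the Alb-cre transgene, in which the albumin promoter drives cre recombinase in hepatocytes, and from 3 CT females, with the floxed alleles but no cre. Effects of cre itself and of losing ERα therefore cannot be told apart. The mice were C57BL/6J, and the study's animals were kept under a light-dark cycle with free access to food. One Affymetrix Mouse Gene 1.1 ST array was hybridised per liver, and the labels call the mice biological replicates. The age of these mice, whether they were fasted and the hour at which the livers were taken are not given in the sources used here.

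The clock of each cell is a feedback loop of transcription. Bmal1 (the product of Arntl) pairs with Clock or Npas2, binds E-boxes and switches on the Per and Cry genes, whose proteins return to the nucleus and inhibit that pair. The same pair drives Nr1d1 and Nr1d2, which repress Arntl, and Dbp, which activates genes through D-boxes. In mouse liver the transcripts of Arntl, Npas2 and Clock are known to peak at about the opposite time of day to those of Dbp, Nr1d1 and the Per genes, with Cry1 late in the night, so the 2 arms move against each other as the hours pass.

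The sequences below hold the letters of these loops. They are shown because promoter windows of Arntl, Cry1, Per1 and Per3 held a match to the elements searched for. The levels of these genes are followed mouse by mouse further on. The sequences are stretches of the RefSeq promoter windows (250 bases before to 50 after an annotated start site, GRCm38.p6), which were found for 9 of the 10 genes and 13 start sites. Capitals mark an E-box (CACGTG), a D-box (TTATGTAA or TTACGTAA) or the core of an element bound by ROR and Nr1d proteins (TAGGTCA), each searched on both strands.
Per1, chr11:69098723-69098848, plus strand: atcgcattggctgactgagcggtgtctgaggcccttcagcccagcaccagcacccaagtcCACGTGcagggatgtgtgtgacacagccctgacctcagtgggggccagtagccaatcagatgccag
Cry1, chr10:85185055-85185174, minus strand: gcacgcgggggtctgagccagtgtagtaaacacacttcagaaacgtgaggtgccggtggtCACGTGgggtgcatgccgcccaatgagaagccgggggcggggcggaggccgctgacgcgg
Per3, chr4:151044756-151044915, minus strand: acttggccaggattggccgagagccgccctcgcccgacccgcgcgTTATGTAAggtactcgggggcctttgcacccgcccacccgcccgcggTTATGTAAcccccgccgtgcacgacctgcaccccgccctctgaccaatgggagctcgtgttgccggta
Arntl, chr7:113207531-113207557, plus strand: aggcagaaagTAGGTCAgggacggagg
The E-box lay from −166 to −161 relative to the start site in Per1 and from −60 to −55 in Cry1, the D-boxes of Per3 from −205 to −198 and from −158 to −151, and the core in Arntl from 30 to 36 after the start site. Over all 32544 windows of this length, 7.17% held the E-box, 1.05% the D-box and 2.61% the core. No match was found in the windows of Clock, Npas2, Nr1d1, Nr1d2 and Dbp. A match describes the letters of a window and no binding was measured in these livers.

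Esr1, which encodes ERα, was at 6.75, 7.06 and 6.77 in the LERKO livers and at 8.45, 8.78 and 8.29 in the CT livers, a LERKO level of 31.9% of CT (log2 fold change −1.65, adjusted p = 0.149 from limma). Hepatocyte markers such as Alb (13.66 to 13.73) were high in every array, and the arrays correlated with each other at 0.985 to 0.991. A pair of livers carried genes of other organs. The summed level of 7 adrenal cortex genes was 12.81 in LERKO replicate 2, against 6.36 and 6.66 in the other LERKO livers and at most 6.29 in CT livers. In CT replicate 3, the summed level of pancreas genes was 10.90 and that of squamous epithelium genes 10.39, against at most 6.74 and 5.91 in the other livers. The summed level of skeletal muscle genes was 7.91 in LERKO replicate 2 and 9.78 in CT replicate 3, against at most 6.93 elsewhere. Here and below, fewer cells of a type and less RNA per cell cannot be told apart in a whole-liver sample.

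None of the 5 tested clock genes passed the test between LERKO and CT livers. Of the 5 tested, 4 had a log2 fold change above 0 and 1 below 0, between −0.01 and 0.26, with a median of 0.02 beside −0.01 over all probe sets tested. At an adjusted p under 0.05 from limma the count was 0 of 5, beside 0% of all probe sets tested. At an unadjusted p under 0.05 it was also 0 of 5, beside 2.98% of all probe sets higher and 4.00% lower in LERKO livers. The methods' t-test likewise called 0 probe sets after adjustment and 455 at an unadjusted p under 0.05. An exact permutation test of 3 mice against 3 cannot give a p below 0.10, so none was run on single genes.

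Of the core activators, Clock, which encodes the partner of Bmal1 (chr5:76209868-76305603), was at 8.14, 7.73 and 8.07 in LERKO livers and at 8.11, 7.92 and 7.97 in CT livers. LERKO replicate 2 was the lowest of all 6 and LERKO replicate 1 the highest, so the CT mice lay inside the range of the LERKO mice. The SD was 0.22 in LERKO and 0.10 in CT (n = 3 each), and the log2 fold change of −0.01 had a 95% interval from −0.31 to 0.28 (adjusted p = 0.988 from limma).

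Arntl (chr7:113178471-113314126) was at 4.66, 4.39 and 4.62 in LERKO livers and at 5.28, 4.81 and 4.32 in CT livers. CT replicate 1 was the highest and CT replicate 3 the lowest of all mice, so the 3 LERKO values lay between CT values. Without the signal filter, the log2 fold change of Arntl was −0.24 (95% interval −0.82 to 0.33, adjusted p = 0.944 from limma). Npas2, a relative of Clock that can take its place (chr1:39193702-39363240), was at 4.40, 4.44 and 4.61 in LERKO livers and at 4.91, 4.43 and 4.37 in CT livers. Again CT replicate 1 was the highest and CT replicate 3 the lowest. The log2 fold change of Npas2 without the filter was −0.09 (95% interval −0.48 to 0.30, adjusted p = 0.972 from limma). Signals this low carry more spread between arrays: the median SD within groups was 0.17 for probe sets below 100 in all arrays and 0.12 for those tested.

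**Figure D1:**
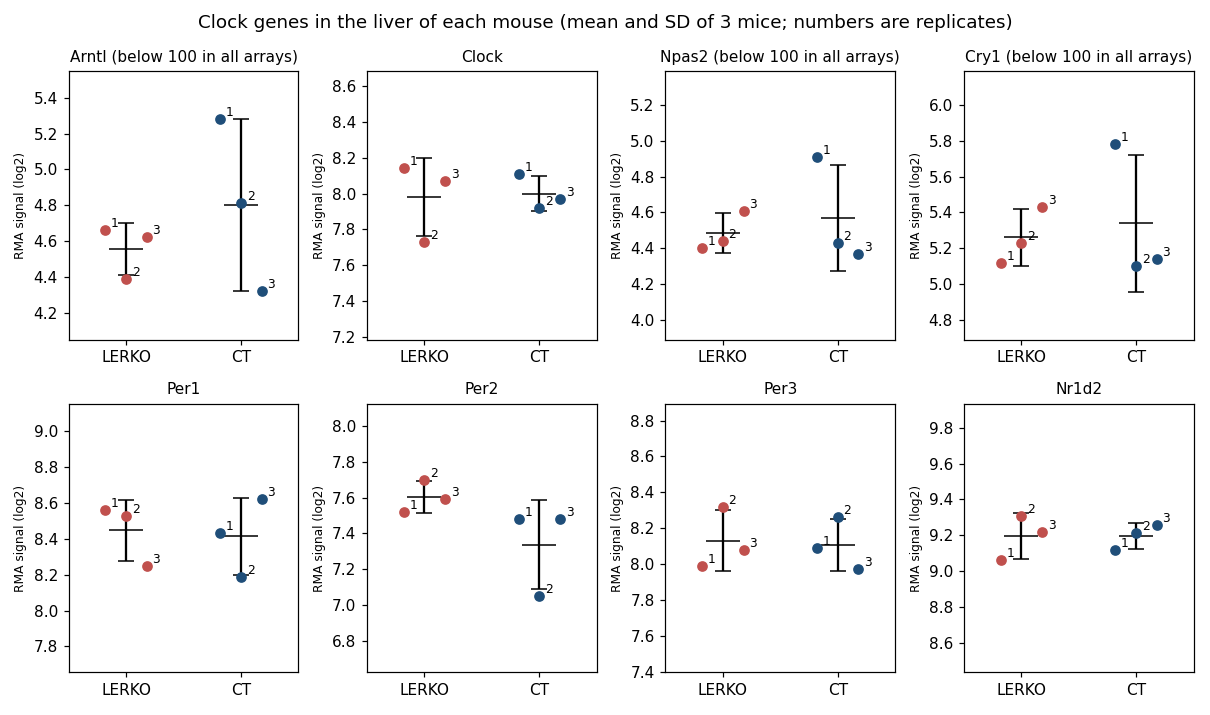
Log2 RMA signal of the 8 clock genes with a probe set of their own, 1 panel per gene, with 3 LERKO mice left of 3 CT mice; points are single mice numbered by replicate, and bars are the group means with SD. LERKO and CT points overlap for all genes but Per2, whose LERKO mice sit between 7.52 and 7.70 and whose CT mice sit between 7.05 and 7.48.

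Of the inhibitors of the loop, Per2 (chr1:91415977-91459351) was the only one whose groups did not overlap. Its level was 7.52, 7.70 and 7.59 in LERKO livers and 7.48, 7.05 and 7.48 in CT livers, so that LERKO replicate 1 lay just above the 2 upper CT mice and CT replicate 2 stood below the rest. Groups without overlap were found for 1 of the 5 tested clock genes, beside 13.0% of all probe sets tested. The means were 7.60 ± 0.09 in LERKO and 7.34 ± 0.25 in CT (SD, n = 3 each), and the log2 fold change of 0.26 (1.20-fold, 95% interval −0.06 to 0.58) had an adjusted p of 0.736 from limma. Without CT replicate 2 it was 0.12.

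Per1, the early and inducible member of its family (chr11:69095108-69109965), was at 8.56, 8.53 and 8.25 in LERKO livers and at 8.43, 8.19 and 8.62 in CT livers. The lowest and the highest mouse were both CT mice. The log2 fold change of Per1 was 0.03, with a 95% interval from −0.30 to 0.36 and an adjusted p of 0.972 from limma. Per3, a member of the family that the core loop can do without in mice (chr4:150997018-151044707), was at 7.99, 8.32 and 8.08 in LERKO livers and at 8.09, 8.26 and 7.97 in CT livers. The highest mouse was LERKO replicate 2 and the lowest CT replicate 3, with the other mice mixed between them. Its log2 fold change was 0.02 (95% interval −0.26 to 0.30, adjusted p = 0.977 from limma), and −0.14 when LERKO replicate 2 and CT replicate 3, the livers with genes of other organs, were left out.

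Cry1, the inhibitor that closes the loop (chr10:85131700-85185054), was at 5.12, 5.23 and 5.43 in LERKO livers and at 5.78, 5.10 and 5.14 in CT livers. CT replicate 1 stood above the others, as it did in Arntl and Npas2, and the remaining mice lay within the range of the LERKO values or just below it. Without the signal filter its log2 fold change was −0.08 (95% interval −0.56 to 0.41, adjusted p = 0.981 from limma). Nr1d2, a nuclear receptor that represses Arntl (chr14:18204056-18239106), varied least. Its level was 9.06, 9.31 and 9.22 in LERKO livers and 9.12, 9.21 and 9.26 in CT livers, with means of 9.20 ± 0.12 in LERKO and 9.20 ± 0.07 in CT (SD, n = 3 each). The CT mice lay inside the LERKO range. The log2 fold change of Nr1d2 was 0.00, with a 95% interval from −0.21 to 0.21. As the mean of its 2 single-gene probe sets it was 0.07.

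**Figure D2:**
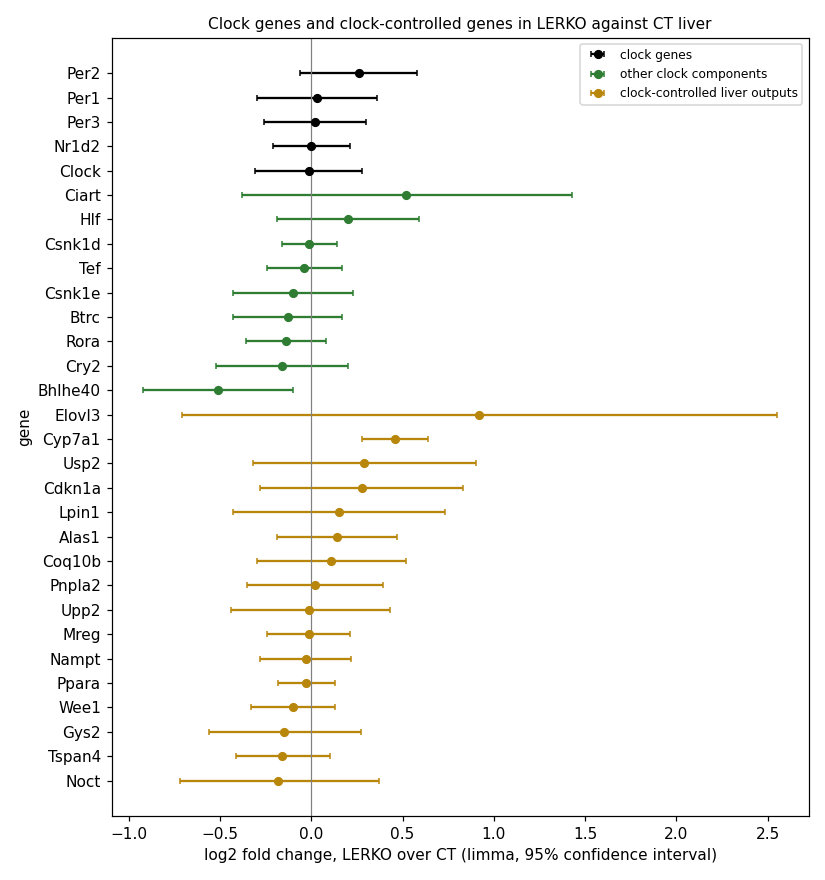
Log2 fold change of LERKO over CT livers (horizontal axis) for the 5 tested clock genes, 9 further clock components and 16 clock-controlled outputs, with 95% intervals from limma; points right of 0 are higher in LERKO. The intervals of all 5 clock genes cross 0, and Per2 lies farthest from it at 0.26.

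Since the loop turns with the hour, the single mice were also compared with each other. Over all 6 mice the range was 0.95 for Arntl (1.94-fold between the highest and the lowest mouse), 0.68 for Cry1, 0.64 for Per2, 0.55 for Npas2, 0.43 for Per1, 0.41 for Clock, 0.35 for Per3 and 0.25 for Nr1d2, in log2 units. The range was therefore below 1 log2 unit for all 8 genes, while 5.68% of tested probe sets had a range of at least 1. That share does not cover Arntl, Cry1 and Npas2, which were not tested. The SD within groups stood at percentile 84.9 for Arntl, 78.6 for Cry1 and 66.9 for Npas2 among probe sets below 100. Among the tested probe sets it stood at percentile 76.5 for Per1, 75.1 for Per2, 70.4 for Clock, 65.7 for Per3 and 37.5 for Nr1d2. The CT mice spread more widely than the LERKO mice in 5 of the 8 genes, beside 60.5% of tested probe sets. Of these genes, Per1 and Per2 were tested, and Arntl, Cry1 and Npas2 were below 100. In the tested Clock, Per3 and Nr1d2 the LERKO mice spread more widely.

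Set against the mean of the 6 mice, CT replicate 1 was high in Arntl (0.60), Cry1 (0.48), Npas2 (0.39) and Clock (0.12), while its Per1, Per2, Per3 and Nr1d2 lay between −0.07 and 0.01. In LERKO replicate 2, Arntl at −0.29 and Clock at −0.26 were below the mean, with Npas2 at −0.09 and Cry1 at −0.07 nearer to it. Its Per2 at 0.23, Per3 at 0.20, Nr1d2 at 0.11 and Per1 at 0.10 were above the mean. CT replicate 3 was low in Arntl (−0.36), with Per1 at 0.19 but Per2 at 0.01 and Per3 at −0.15, the lowest Per3 of all mice. CT replicate 2 was low in Per2 (−0.42), Per1 (−0.24) and Cry1 (−0.20) but not in Per3 (0.14) or Arntl (0.13).

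The mean of Per1, Per2, Per3 and Nr1d2 minus the mean of Arntl, Clock, Npas2 and Cry1, each gene taken from its own 6-mouse mean, gives 1 value per mouse for the balance of the arms. Cry1 is an inhibitor, placed beside Arntl for the time of its peak and not for its role. This balance was 0.02, 0.33 and −0.08 in the LERKO livers and −0.42, −0.06 and 0.21 in the CT livers, in log2 units. The extremes were CT replicate 1 and LERKO replicate 2, which stood 0.75 apart, and the groups overlapped. In CT replicate 1 the mean was 0.40 for Arntl, Clock, Npas2 and Cry1, with Arntl and Cry1 farthest from 0, and −0.02 for the other 4 genes. In LERKO replicate 2 it was −0.18 for Arntl, Clock, Npas2 and Cry1 and 0.16 for the other 4 genes. With only the genes that reached a signal of 100, which leaves Clock alone beside the Per genes and Nr1d2, the balance was −0.18, 0.42 and −0.10 in LERKO livers and −0.14, −0.05 and 0.05 in CT livers, so CT replicate 1 no longer stood at the low end. That version was chosen after the values were seen. The 2 highest balances belonged to LERKO replicate 2 and CT replicate 3, the livers with adrenal and with pancreas, muscle and squamous genes, and the part of that RNA in the balance was not tested.

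**Figure D3:**
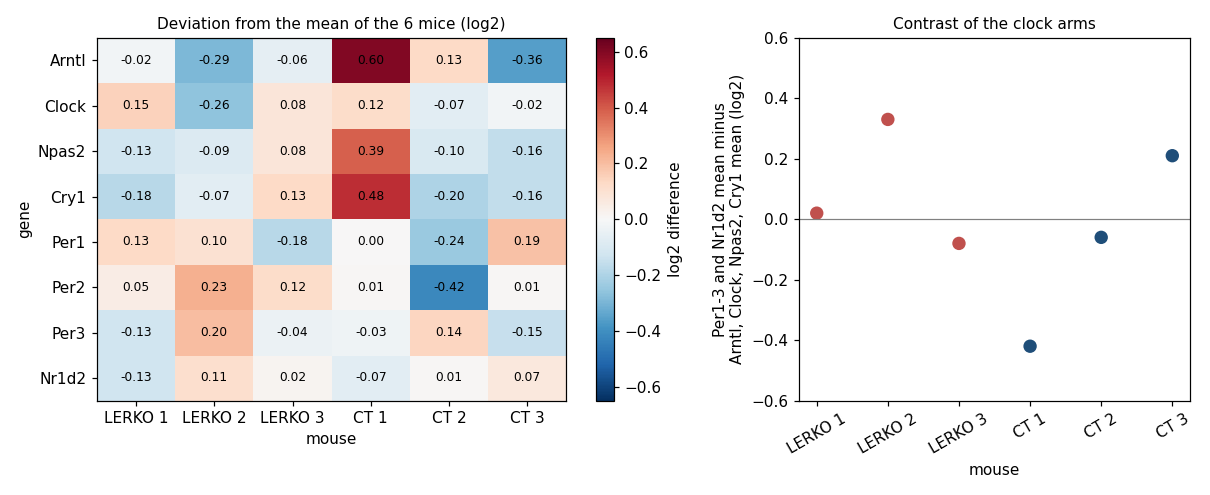
Deviation of each clock gene from its mean over the 6 mice (left panel, coloured by log2 difference) and the balance of the arms (right panel), with the LERKO mice left of the CT mice. CT replicate 1 is high in Arntl, Npas2 and Cry1 (0.39 to 0.60), and the balance, plotted as the contrast of the clock arms, runs between −0.42 and 0.33.

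Pairs of clock genes were compared across the 6 mice in 28 correlations, of which 0 passed an adjusted p of 0.05 and 2 had an unadjusted p under 0.05 (exact permutation, two-sided). Cry1 and Npas2 had a Pearson r of 0.98 (exact p = 0.0125, adjusted p = 0.35) and a Spearman rho of 0.77 (exact p = 0.103). Without the 2 mice farthest from the median of Cry1, LERKO replicate 3 and CT replicate 1, r over the remaining mice was 0.37. Clock and Nr1d2, which belong to opposite arms, had an r of −0.84 (exact p = 0.0361, adjusted p = 0.457) and a rho of −0.83 (exact p = 0.0583). Without LERKO replicates 1 and 2 their r was −0.60. Arntl and Npas2 had an r of 0.84 (exact p = 0.0597, adjusted p = 0.457) and a rho of 0.54 (exact p = 0.297), and an r of −0.06 without CT replicates 1 and 3. In each pair the mice left out were the 2 farthest from the median of the gene named first. Leaving them out narrows the range of that gene and tends to weaken r, so no conclusion is drawn from the weaker values.

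The genes most like Arntl over the 6 arrays, among 309 single-gene probe sets with a range of at least 1 log2 unit, were Arhgef19 (r = 0.95), Tap1 (0.88), Nlrc5 (0.87), BC023105 (0.86) and Vldlr (0.84). Tap1 and Nlrc5 serve antigen presentation. Those most like Per2 were Fbxo36 (r = 0.98), Ciart (0.97, on the second of its probe sets), Mup6 (0.96), Acot3 (0.96) and Slc22a7 (0.94). Like Per2, each of these genes was lowest in CT replicate 2 (Mup6 at 8.78, against 11.16 to 11.88 in the other mice). The choice by likeness favours this, since Per2 lay farthest from its 6-mouse mean in that mouse (−0.42). For these genes, r without that mouse was not computed. Ciart encodes a repressor within the clock itself, while Mup6 belongs to a family of near-identical genes, so its signal may hold that of its relatives. These are descriptions over 6 arrays, and 10 of the 309 probe sets reached an r of 0.9 with Per2, beside 1 with Arntl.

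Ciart differed more between mice than Per2 did, in the same mouse. It was at 8.25, 8.21 and 7.98 in LERKO livers and at 7.92, 6.70 and 8.25 in CT livers. Its second probe set, named above for its likeness to Per2, was lowest in CT replicate 2 at 6.75, which that choice favours. Usp2, a ubiquitin protease under clock control, was at 9.22, 9.68 and 9.22 in LERKO livers and at 9.51, 8.57 and 9.17 in CT livers. Hlf, a PAR bZIP factor related to Dbp, was at 8.47, 8.22 and 8.35 in LERKO livers and at 8.41, 7.80 and 8.23 in CT livers. In each of these genes CT replicate 2 was lowest and the other mice of both groups overlapped. Elovl3, a fatty acid elongase with a strong daily rhythm in mouse liver, was at 6.60, 6.41 and 6.97 in LERKO livers and at 6.34, 4.06 and 6.83 in CT livers. Only LERKO replicate 3 and CT replicate 3 reached a signal of 100 in Elovl3, so its level was low. Usp2, Hlf and Elovl3 were picked with their values known.

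Ciart, Usp2, Hlf and Elovl3 were chosen with their values known, and CT replicate 2 was lowest in each. Their log2 fold changes therefore had to fall without that mouse. With all mice they were 0.52 for Ciart (adjusted p = 0.796 from limma), 0.29 for Usp2, 0.20 for Hlf and 0.92 for Elovl3, and without CT replicate 2 they were 0.06, 0.03, 0.03 and 0.08. CT replicate 2 was the lowest of all mice in 3 of the 8 clock genes and in 5 of 16 clock-controlled outputs (31.2%), beside 16.4% of all probe sets tested. CT replicate 3 was also lowest in 3 of the 8 clock genes, beside 24.4% of all probe sets tested. These shares cover tested probe sets only. Cry1 (lowest in CT replicate 2) and Arntl and Npas2 (lowest in CT replicate 3) were not tested. Among the 9 further clock components, CT replicate 2 was lowest in 2 and highest in 3, and CT replicate 3 was lowest in 3. CT replicate 2 was the lowest in all 5 tested Kupffer cell markers (Vsig4 at 9.50, against 10.19 to 10.60 in the other mice). The gap was smaller for Clec4f (9.19, against 9.37 to 9.53). Marco stayed below 100 in all arrays and was lowest in LERKO replicate 3 (4.42, against 4.87 in CT replicate 2). With Marco included, the summed level was 11.46, 11.50 and 11.31 in LERKO livers and 11.38, 10.86 and 11.58 in CT livers. The hepatocyte markers of CT replicate 2 were not low, with a summed level of 15.89 against 15.74 to 15.83 in the other livers. The summed levels of endothelial (11.07), stellate cell (11.69) and lymphocyte markers (5.46) were also lowest in CT replicate 2. The other livers reached at least 11.10, 11.80 and 5.52. Endothelial Stab1, Stab2 and Clec4g, stellate cell Reln and Dcn and lymphocyte Cd3e were lowest in CT replicate 2. Endothelial Lyve1 was highest there (7.89), and stellate cell Lrat and Colec11 and lymphocyte Cd79a were lowest in other mice. The lymphocyte markers stayed below 100 in all arrays. The summed level of cholangiocyte markers was highest in CT replicate 2 (7.75, against at most 7.52), where Sox9 was highest (7.32). Krt19 (3.81) and Epcam (4.24) were lowest there, and these and Krt7 stayed below 100 in all arrays. The part of these cell types in the low values of CT replicate 2 was not tested.

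**Figure D4:**
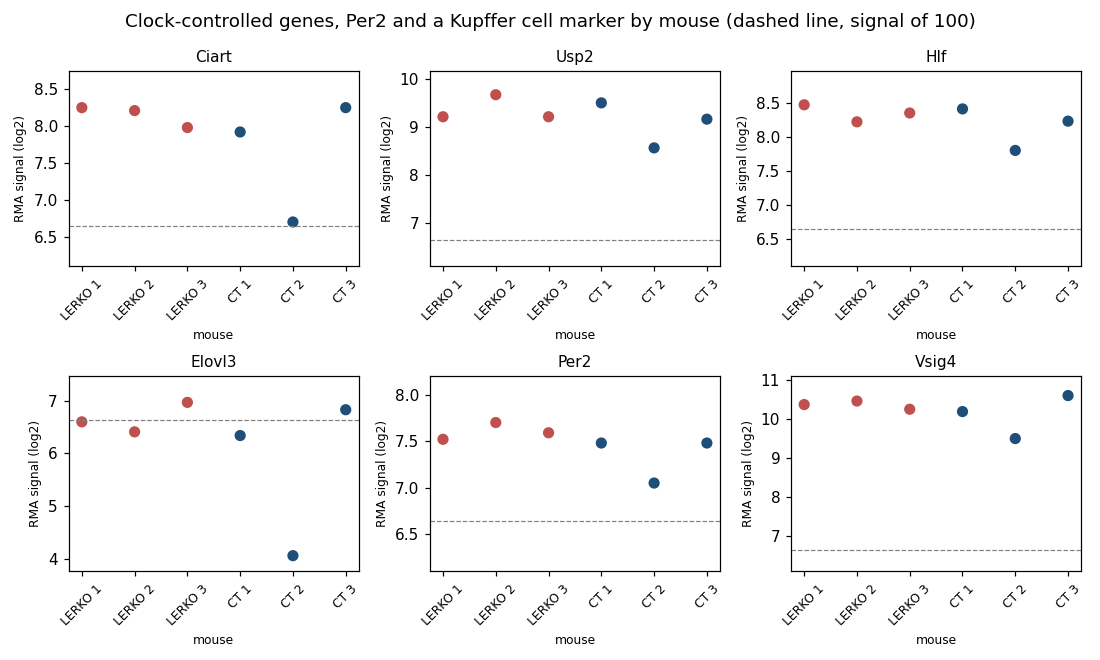
Log2 RMA signal of Ciart, Usp2, Hlf, Elovl3, Per2 and the Kupffer cell marker Vsig4 in single mice, with LERKO left of CT and the dashed line at a signal of 100 (6.64). CT replicate 2 is the lowest point of every gene shown, at 7.05 for Per2 and 4.06 for Elovl3.

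Of 16 further clock components, 9 were tested, with 2 above 0 and 7 below it and a median log2 fold change of −0.10, beside −0.01 over all probe sets. The median was −0.03 without CT replicate 2. At an unadjusted p under 0.05, 0 were higher and 1 was lower in LERKO livers (1 of 9), beside 2.98% higher and 4.00% lower over all probe sets. That gene was Bhlhe40, a repressor at E-boxes, at 8.89, 9.26 and 9.57 in LERKO livers and at 9.75, 9.62 and 9.87 in CT livers. The groups did not overlap (log2 fold change −0.51, SE 0.17, adjusted p = 0.703 from limma), with values from −0.67 to −0.33 when 1 mouse was left out. Groups were without overlap for 1 of the 9 tested components, beside 13.0% of all probe sets tested. Cry2, the second cryptochrome, was at 8.28, 8.25 and 8.14 in LERKO livers and at 8.67, 8.43 and 8.07 in CT livers, with CT replicates at both ends.

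Of 17 clock-controlled liver outputs, 16 were tested, with 8 above 0 and 8 below it, a median of 0.01, and 1 higher and 0 lower at an unadjusted p under 0.05, where all probe sets gave 2.98% and 4.00%. That gene was Cyp7a1, which encodes the enzyme of the first step of the classic bile acid pathway. Its level was 12.39, 12.49 and 12.57 in LERKO livers and 12.05, 11.97 and 12.04 in CT livers, so the groups did not overlap and each was tight (log2 fold change 0.46, SE 0.07, adjusted p = 0.703 from limma). With 1 mouse left out it stayed between 0.42 and 0.51. Groups were without overlap for 1 of the 16 tested outputs, beside 13.0% of all probe sets tested.

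Genes that follow body temperature or hormones can carry daily signals into the liver beside its own clock. Of 7 tested temperature-responsive genes, 1 was above 0 and 6 below it, with a median of −0.19. At an unadjusted p under 0.05, 0 of the 7 were higher and 2 lower, beside 2.98% higher and 4.00% lower over all probe sets, and without CT replicate 2 the count was 1. The chaperone Hsp90aa1 was at 9.02, 8.73 and 8.72 in LERKO livers and at 9.42, 9.32 and 9.17 in CT livers (log2 fold change −0.48, SE 0.11, adjusted p = 0.703 from limma). The small heat shock protein Hspb1 was at 8.68, 8.17 and 8.05 in LERKO livers and at 9.07, 8.87 and 8.61 in CT livers, where LERKO replicate 1 lay above the lowest CT mouse. Its log2 fold change was −0.55 (SE 0.19, adjusted p = 0.703 from limma), and −0.34 as the mean of all its single-gene probe sets.

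Of 13 genes that respond to glucocorticoids or to CREB, all tested, 3 were above 0 and 10 below it, with a median of −0.43, or −0.28 without CT replicate 2. At an unadjusted p under 0.05, 0 of the 13 were higher and 2 lower, beside 2.98% and 4.00% of all probe sets. The kinase Sik1, a CREB target, was at 7.45, 8.23 and 8.11 in LERKO livers and at 9.27, 8.98 and 8.77 in CT livers, without overlap (log2 fold change −1.08, SE 0.23, adjusted p = 0.703 from limma). Irs2, an adaptor of insulin signalling, was at 6.98, 7.68 and 7.40 in LERKO livers and at 8.07, 8.24 and 7.71 in CT livers, also without overlap (log2 fold change −0.65, SE 0.21, adjusted p = 0.703 from limma). The other genes of this list did not pass an unadjusted p of 0.05, and 3 of them are given with their values known. Nr4a1, an early-response nuclear receptor with the largest fold change of the list, was at 6.02, 7.79 and 5.28 in LERKO livers and at 8.68, 7.05 and 7.05 in CT livers, with overlap (log2 fold change −1.23, SE 0.72, adjusted p = 0.758 from limma). It was −1.95 without LERKO replicate 2, and −0.69 without LERKO replicate 3 and without CT replicate 1. The kinase Sgk1, which glucocorticoids induce, was at 6.65, 6.46 and 6.34 in LERKO livers and at 6.71, 7.58 and 6.81 in CT livers. Its groups did not overlap (log2 fold change −0.55, adjusted p = 0.703 from limma), and without CT replicate 2 the value was −0.28. Groups were without overlap for 3 of the 13 genes, beside 13.0% of all probe sets tested. Fkbp5, also induced by glucocorticoids, was at 7.88, 7.49 and 7.33 in LERKO livers and at 6.43, 7.04 and 7.64 in CT livers. Its groups overlapped (log2 fold change 0.53, adjusted p = 0.758 from limma), and the value was 0.22 without CT replicate 1 and 0.83 without CT replicate 3.

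Over the 4 lists together 45 genes were tested, of which 14 were above 0 and 31 below it with a median of −0.04. None passed an adjusted p of 0.05 from limma (0 of 45), and 1 was higher and 5 were lower at an unadjusted p under 0.05, beside 2.98% and 4.00% of all probe sets.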

How the data were processed

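Liver RNA of 6 female mice (3 LERKO, 3 CT) was hybridised to Affymetrix Mouse Gene 1.1 ST arrays, 1 per mouse. The authors made the deposited log2 signals with RMA of the oligo package, 1 signal for each probe set (background correction, quantile normalization and median-polish summary); the package version is not given in the sources used here. RMA draws arrays to 1 distribution and compresses differences at low signal. The deposited table holds all 35556 probe sets, and 9452 to 9865 reached a signal of 100 per array. The number of arrays limits the precision.

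Genes were named from the platform annotation, which pairs 21218 probe sets with 1 gene, 1881 with several and 12457 with none; 21185 of the single-gene IDs were found in RefSeq. Coordinates and sequences are those of RefSeq on GRCm38.p6. Probe sets that reached 100 (6.64) in at least 1 array entered an unblocked fit of limma 3.58.1 (R 4.3.3; lmFit, then eBayes) with Benjamini-Hochberg adjustment over 10633 probe sets at a false discovery rate of 5%. The step was tested on simulated data. Replicate numbers did not pair the mice: same-numbered mice had correlated deviations of −0.16, −0.07 and −0.14. Alternatives covered the filter, the variance model, the normalization, the test, the block and left-out mice.

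The members and lists were chosen with earlier results of these data known. Named genes were the 10 members, Esr1, list genes at an unadjusted p under 0.05, the 5 genes most like Arntl and Dbp over the 6 arrays, and markers that moved with a result. Cry2, Ciart, Usp2, Hlf, Elovl3, Nr4a1, Sgk1 and Fkbp5 were added with their values known. Dbp lies only on a shared probe set, so Per2 took its place after the data were seen, and the balance of the arms holds neither Dbp nor Nr1d1. Marker sums are log2 of summed signals over a cell type's listed genes.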

Additional observations from a re-analysis of the deposited data

How the results depend on the processing

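The 5 tested clock genes gave 0 calls at an adjusted p under 0.05 under every alternative run, and the smallest adjusted p of Per2 was 0.458 (limma, without CT replicate 3). Fold changes near 0 changed sign: with 1 mouse left out Clock ran from −0.10 to 0.11, Nr1d2 from −0.06 to 0.07, Per1 from −0.08 to 0.13 and Per3 from −0.07 to 0.10. Without CT replicate 3 and LERKO replicate 2 together, Clock was 0.10, Nr1d2 −0.02 and Per3 −0.14. Over all probe sets, 0 were called in the limma fit used here, 3 with a signal of 100 required in all arrays, 1 with an intensity trend, and 0 to 1 with 1 mouse left out (1 without LERKO replicate 3). Esr1 passed under the stricter filter (adjusted p = 0.0409) and with the trend (adjusted p = 0.0485). The 742 probe sets at an unadjusted p under 0.05 became 1739 without a filter, 455 with the methods' t-test, 416 without LERKO replicate 1, 1188 without CT replicate 3, and 1152 without CT replicate 3 and LERKO replicate 2. The replicate block gave 0 calls and 574 at an unadjusted p. Over the 4 lists together, of clock genes and of temperature, glucocorticoid or CREB genes, 6 were at an unadjusted p under 0.05. That count became 3 with the methods' t-test and 4 to 11 with 1 mouse left out (11 without CT replicate 3). It was 13 without CT replicate 3 and LERKO replicate 2. The cause of these shifts was not tested. The distance between the extreme mice in the balance of the arms was 0.59 to 0.86 under all alternatives run, beside 0.75. A similar distance does not show that the order of the mice held. The 0.59 came with only the genes that reached a signal of 100, where the extremes were LERKO replicates 1 and 2. In the other versions they were CT replicate 1 and LERKO replicate 2. Repeated quantile normalization over kept probe sets gave no balance, since Arntl, Npas2 and Cry1 are not kept. Low signal limits those 3 genes, and 1 collection time per mouse allows no estimate of phase.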

Other observations

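The shared probe sets of Nr1d1 and Dbp name no single gene and are given as values only. One probe set of Nr1d1 and Thra was at 7.37, 7.61 and 7.56 in LERKO livers and at 7.84, 7.78 and 7.23 in CT livers, with overlapping groups and a log2 fold change of −0.10. The other was at 10.79, 10.87 and 11.12 in LERKO livers and at 11.03, 11.26 and 10.99 in CT livers, again overlapping, with −0.17. The probe set of Dbp and Sphk2 was at 9.89, 10.10 and 10.14 in LERKO livers and at 10.12, 10.05 and 10.13 in CT livers, with −0.06. CT replicate 2, the lowest mouse in Per2, was not the lowest in any of these.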
